A study of Mus musculus with 12 samples.

Results

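Skeletal muscle sarcomere and fiber type genes were followed in dorsal root ganglia (DRG), the clusters of sensory neurons beside the spinal cord. The set was a list of 35 gene symbols, chosen by name for the contractile apparatus, calcium handling and energy supply of skeletal muscle. It was chosen with earlier results of these data known. All 35 were found among the 49315 genes of the count table, each had at least 1 read in every mouse, and all 35 passed the filter on low counts that left 18295 genes for testing. In 26 of the 35, every mouse had at least 10 reads.

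The DRG came from 12 mice aged 10 months, and 8 DRG were pooled per mouse into 1 library. All animals were Postn-Cre(+) and Nf2 flox/flox, so Nf2, the gene encoding the tumor suppressor merlin, was targeted in every library. The 6 mice termed Nf2 carried only these alleles, and the 6 mice termed DKO were in addition Fak1 flox/flox. Fak1, or Ptk2, encodes focal adhesion kinase. The labels name no treatment. The Postn-Cre transgene acts in Schwann cells and their precursors, so muscle fibers were not its intended target, and mice without Cre were not analysed here. Each genotype held 3 mice labelled male and 3 labelled female. Nf2 mouse 702, labelled male, had 496 CPM (the read count divided by the library total and given in parts per 1000000) of Xist and 0.525 CPM of Ddx3y. Xist is transcribed from the inactive X chromosome and Ddx3y from the Y chromosome. Mice labelled female had 428 to 637 CPM of Xist and 0.1495 to 0.8519 CPM of Ddx3y. The other mice labelled male had 0.3636 to 6.175 CPM of Xist and 76.0 to 86.3 CPM of Ddx3y. Mouse 702 thus stood with the mice labelled female in both genes, against its label. Its labels of sex and genotype were both kept. A library that goes against its sex label may be wrongly labelled in genotype too, which could not be checked here. Results are therefore also given without mouse 702.

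The libraries held 21129191 to 41250329 counts, and mitochondrial genes took 1.99% to 5.60% of them. The labelled tissue was checked with its defining genes. A list of 13 sensory neuron genes, Nefh, Tubb3, Prph and Scn10a among them, summed to 6881 to 9155 CPM per mouse, and 8 Schwann cell genes, Mbp and Pmp22 among them, summed to 8204 to 11809.9 CPM. No gene of either list was at 0. Ptk2 stood at 46.5 and 58.0 CPM in DKO mice 886 and 917 and at 64.5 to 76.0 CPM in all other mice of either genotype, so whole-gene counts of mixed tissue did not separate the genotypes.

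A skeletal muscle fiber is filled with sarcomeres, in which thick filaments of myosin pull on thin filaments of actin anchored at the Z disc. Calcium released from the sarcoplasmic reticulum binds troponin on the thin filament and starts the contraction, and pumps then return it. Fibers are typed by their myosin heavy chain, slow fibers by Myh7, and fast fibers of the IIA, IIX and IIB classes by Myh2, Myh1 and Myh4. Most troponin subunits likewise have a fast and a slow gene. Muscle fibers are not resident cells of the ganglion, which lies close to the muscles of the spine, and how muscle RNA came into these libraries was not tested. Some members also have sources within the ganglion, such as Tpm1 in many cell types and Pvalb in proprioceptive neurons.

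The 3 fast myosin genes lie side by side on chromosome 11, and their promoters are shown because the fast myosins are the members by which fiber type is read. The promoter of Acta1, the skeletal muscle actin, is shown beside them because its level moved with theirs. The sequences are RefSeq reference sequence on GRCm38.p6, from 250 bases before to 50 bases after the start, 5′ to 3′ on the strand of the gene. Capitals mark E-boxes, written CANNTG, to which myogenic factors such as MyoD can bind, the TATA box TATAAA, and the MEF2 site.
Myh2 promoter (chr11:67170777-67171076, plus strand): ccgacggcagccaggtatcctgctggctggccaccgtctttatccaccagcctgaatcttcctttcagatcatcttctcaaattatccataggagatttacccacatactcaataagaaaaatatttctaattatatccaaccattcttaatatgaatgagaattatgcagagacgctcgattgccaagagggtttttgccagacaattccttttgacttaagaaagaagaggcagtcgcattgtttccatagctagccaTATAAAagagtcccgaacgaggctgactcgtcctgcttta
Myh1 promoter (chr11:67199852-67200151, plus strand): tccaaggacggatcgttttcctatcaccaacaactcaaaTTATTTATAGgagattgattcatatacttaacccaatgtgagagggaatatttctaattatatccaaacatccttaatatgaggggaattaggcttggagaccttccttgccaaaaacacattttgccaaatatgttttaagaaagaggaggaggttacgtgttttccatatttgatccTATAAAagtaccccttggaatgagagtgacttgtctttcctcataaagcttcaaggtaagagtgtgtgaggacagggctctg
Myh4 promoter (chr11:67237562-67237861, plus strand): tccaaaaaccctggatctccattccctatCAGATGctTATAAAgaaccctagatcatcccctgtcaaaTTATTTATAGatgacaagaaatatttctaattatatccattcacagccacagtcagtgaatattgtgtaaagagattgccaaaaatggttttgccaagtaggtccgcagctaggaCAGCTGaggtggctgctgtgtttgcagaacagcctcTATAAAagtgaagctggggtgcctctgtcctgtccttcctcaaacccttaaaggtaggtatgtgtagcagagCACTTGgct
Acta1 promoter (chr8:123894726-123895025, minus strand): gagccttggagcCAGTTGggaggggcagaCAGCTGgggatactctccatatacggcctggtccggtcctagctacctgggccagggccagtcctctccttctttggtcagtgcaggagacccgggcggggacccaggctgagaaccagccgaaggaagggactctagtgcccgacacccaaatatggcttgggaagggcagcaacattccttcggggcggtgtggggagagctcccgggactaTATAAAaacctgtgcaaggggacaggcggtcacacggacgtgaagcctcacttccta

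Motifs were searched on both strands of the window of each member. RefSeq windows were matched for 29 of the 35 members, and Actn3, Ampd1, Neb, Tcap, Tnni2 and Tnnt3 had no entry. An E-box was present in 24 of the 29 windows (82.8%), against 72.1% of 27025 mouse promoters of the same length. TATAAA was present in 6 members (20.7% against 14.2%), and the MEF2 site in 5 members (17.2% against 3.3%), namely Myh1, Myh4, Pvalb, Ttn and Xirp2. A CArG box, the motif of serum response factor, was present in 2 members, Acta1 and Myh4 (6.9% against 1.6%). The MCAT element CATTCC was present in 11 members (37.9% against 14.6%). The MEF2 site of Myh1 and that of Myh4 each overlapped a TATAAA on the opposite strand, and the Myh4 window ended before the start that GENCODE gives for the gene. These are matches of letters and not tests of binding.

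Muscle transcripts varied widely between mice of the same genotype. The 35 members together took 422 CPM in the lowest Nf2 mouse (702), 1609.9 CPM at the median and 2185 CPM in the highest (918). In DKO mice they took 384 CPM in the lowest (886), 529 CPM at the median and 952 CPM in the highest (917). Nf2 mice 918, 1049, 884 and 1048 each had 1491 CPM or more and lay above every DKO mouse, whereas Nf2 mice 649 and 702, at 552 and 422 CPM, lay within the DKO range. The genotypes therefore overlapped in this sum, whose mean was 1362 ± 715 CPM (SD, n = 6) in Nf2 mice and 573 ± 204 CPM (SD, n = 6) in DKO mice.

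Tpm1, a tropomyosin gene, made up 16.9% to 73.5% of the sum, with the highest share in mouse 702. Without Tpm1 and Pvalb, the remaining 33 members summed to 72.7, 1230.1 and 1735 CPM in Nf2 mice and to 93.3, 197 and 619 CPM in DKO mice (lowest, median and highest). Mouse 918 was again the highest, and mouse 702 was now the lowest of all 12. Mice 649 and 702 had 23479473 and 26659900 counts in all and sensory neuron sums of 9155 and 7764 CPM. The neuron sum of mouse 649 was the highest of the 12 mice. Mitochondrial genes took 4.45% and 1.99% of their counts. Whether depth or tissue makeup bears on the muscle levels of these mice was not tested. Because the tissue was measured in bulk, fewer muscle cells and less muscle RNA per cell cannot be told apart.

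**Figure D1:**
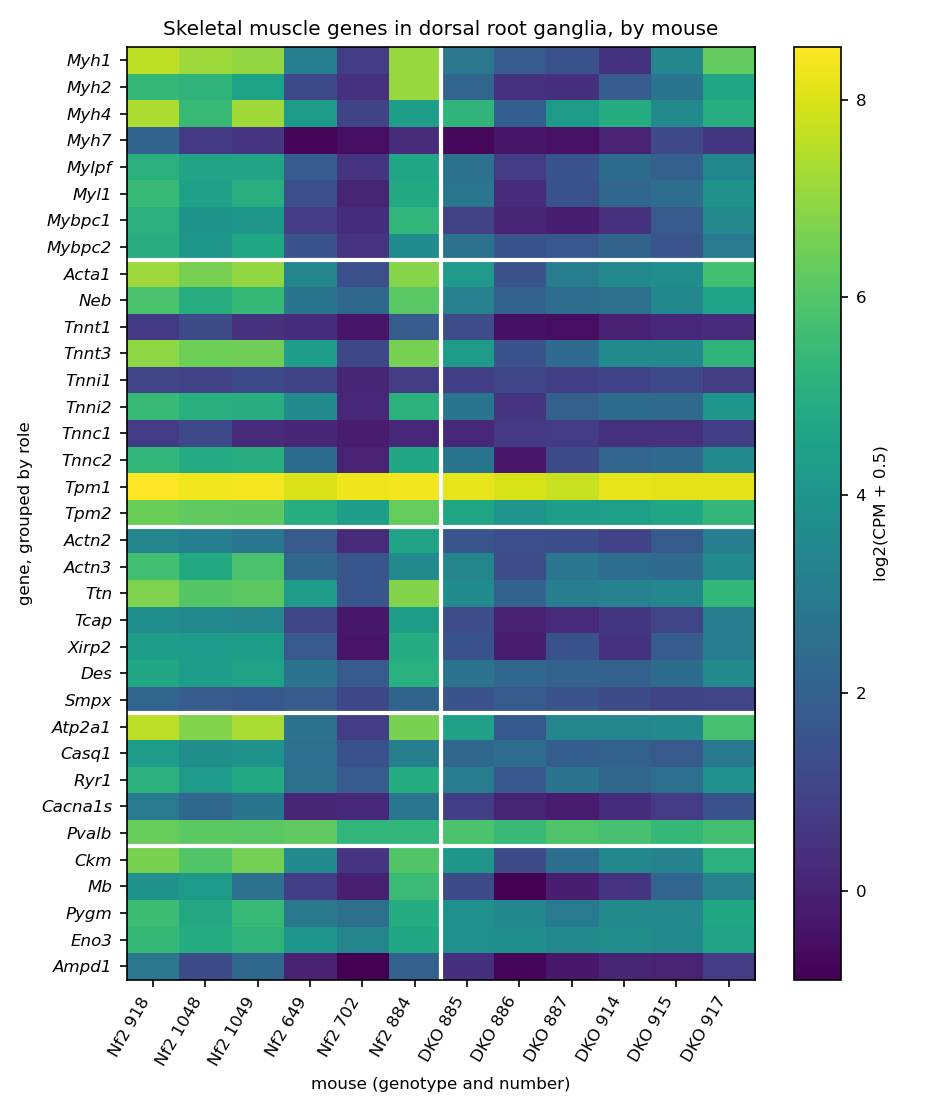
Levels of the 35 members, as log2(CPM + 0.5), with genes grouped by role in rows (thick filament, thin filament, Z disc and scaffold, calcium handling, energy; white lines divide the roles) and the 12 mice in columns, Nf2 on the left and DKO on the right. The columns of Nf2 mice 918, 1048, 1049 and 884 are brightest in most rows, those of mice 702 and 886 are darkest, and Tpm1 and Pvalb stay bright in every column.

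The members moved together across mice. All 35 had their highest value in an Nf2 mouse, 22 of them in mouse 918 and 10 in mouse 884. The lowest value fell in mouse 702 for 20 members and in mouse 886 for 6. Among DKO mice, mouse 917 was the highest in 28 members. Nf2 mice 918, 1048, 1049 and 884 lay above all 6 DKO mice in 24 members. These mice were picked after their values were seen. For none of these counts was the share over all genes taken, and the members moved together, so they are not separate observations. For 25 members, the Pearson correlation with the sum of the other members exceeded 0.9 over the 12 mice, a description in which all genes share the same libraries. The spread was wide: of the 32 members with more than 3 reads in the lowest mouse, 23 differed over 10-fold between the lowest and the highest mouse and 13 over 50-fold. The biological coefficient of variation had a median of 77.6% over the members and 15.7% over all genes tested.

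DKO was compared with Nf2 to see how loss of Fak bears on expression in Nf2-deficient ganglia. No member passed an adjusted p of 0.05 in edgeR's quasi-likelihood test with Benjamini-Hochberg adjustment over all genes, where 0.940% of genes did (172 of 18295, of which 68 were higher and 104 lower in DKO). The smallest adjusted p among the members was 0.0784, for Tpm2. At an unadjusted p under 0.05, 28 of the 35 were lower in DKO, where 7.96% of all genes were. This count was 28 in DESeq2 (8.70% of all genes) but 9 in limma voom (9.75% of all genes). A log2 fold change of -1 or lower was estimated for 27 members, against 0.962% of all genes, and an estimate below 0 for 33 members, against 49.0%. The exceptions were the slow troponins Tnni1 and Tnnc1, with estimates of 0.08 and 0.17. The median log2 fold change was -1.96 over the members and 0.005 over all genes tested. The members share their spread between mice, so these counts do not stand for 35 separate observations. The list was also chosen with earlier results of these data known. In none of the 35 were the genotypes free of overlap, against 1.95% of all genes.

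The count of calls depended on the tool and on mouse 702. DESeq2 called 6 members lower in DKO (Des, Cacna1s, Casq1, Tpm2, Tpm1 and Eno3), where it called 4.91% of all genes, and limma voom with quality weights called Tpm1, where it called 2.85%. Without mouse 702, edgeR called Tpm2 (log2 fold change -1.50, adjusted p 0.0246), Des (-1.99, adjusted p 0.0446) and Casq1 (-1.50, adjusted p 0.0495), and the median over the members was -2.20. Without mouse 649, edgeR called Tpm2 (-1.45, adjusted p 0.0479).

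**Figure D2:**
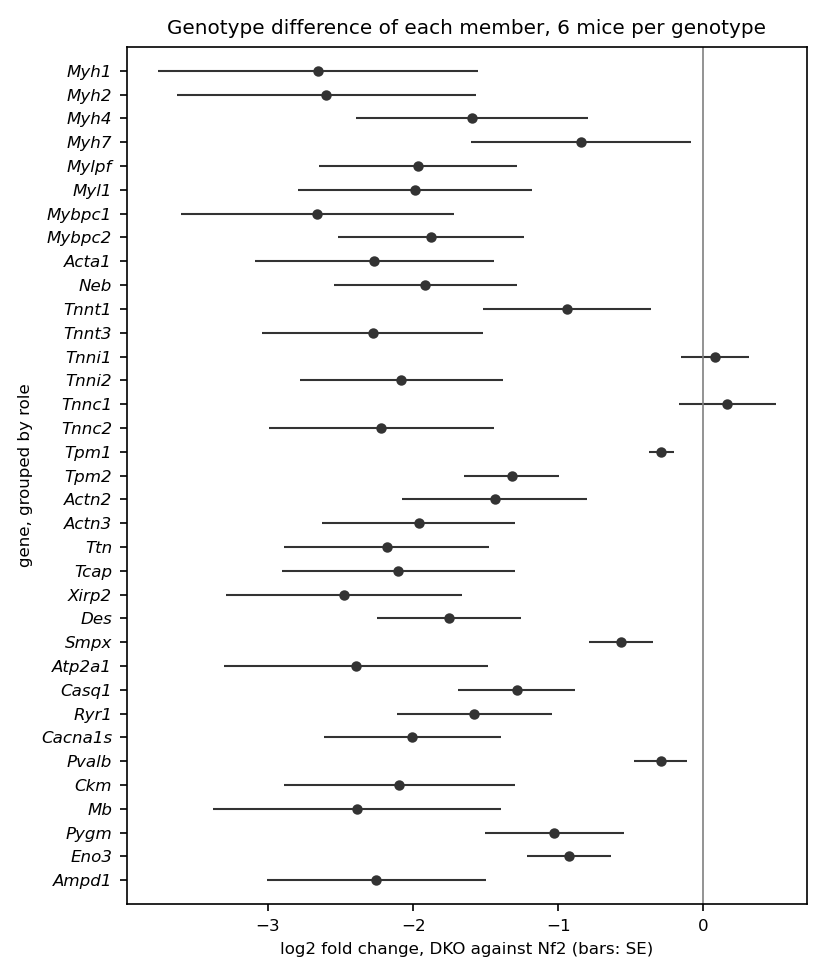
Log2 fold change of each member in DKO against Nf2 (points) with its standard error (bars), 6 mice per genotype, genes grouped by role on the vertical axis. Estimates run from -2.66 for Mybpc1 and Myh1 to 0.17 for Tnnc1, and the widest bars belong to Myh1 and Myh2.

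The thick filament holds the myosin heavy chains, their light chains and the myosin-binding proteins. Its 8 members summed to 7.09, 348 and 549 CPM in Nf2 mice (lowest, median, highest) and to 12.3, 46.3 and 177 CPM in DKO mice, the widest range of the 5 roles as a fold. Myh1 (ENSMUSG00000056328, GRCm38 chromosome 11, 67200052 to 67224575), the IIX myosin, had 1.28, 130.1 and 197 CPM in Nf2 mice and 0.897, 4.77 and 75.6 CPM in DKO mice. Mice 918, 1048, 1049 and 884 were at 127 CPM or more, whereas 649 and 702 were at 8.52 and 1.28 CPM, so that the genotypes overlapped. Myh1 had a log2 fold change of -2.66 ± 1.10 (SE) and an adjusted p of 0.274 in edgeR. Its range over the 12 mice was 219-fold, the widest among the 32 members for which a fold was taken.

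Myh2 (ENSMUSG00000033196, chromosome 11, 67171027 to 67197517), the IIA myosin, had 0.863, 30.3 and 136 CPM in Nf2 mice and 0.805, 3.57 and 25.4 CPM in DKO mice. Its highest mouse was 884 and not 918, and the genotypes overlapped. Its log2 fold change of -2.60 ± 1.03 (SE) had an edgeR adjusted p of 0.249. Myh4 (ENSMUSG00000057003, chromosome 11, 67238029 to 67260446), the IIB myosin of the fastest fibers, had 1.54, 32.3 and 165 CPM in Nf2 mice and 3.28, 24.4 and 37.8 CPM in DKO mice. Here only mice 918, 1049 and 1048 lay above all DKO mice, and mouse 884, at 20.4 CPM, lay within the DKO range. For Myh4 edgeR gave a log2 fold change of -1.59 ± 0.80 (SE), adjusted p 0.378.

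Myh7 (ENSMUSG00000053093, chromosome 14, 54970684 to 54994626), the slow myosin, was by far the scarcest of the 4, with 0.0852, 0.826 and 3.89 CPM in Nf2 mice and 0.114, 0.404 and 1.78 CPM in DKO mice. Mouse 649 had 2 reads of it. Its log2 fold change of -0.84 ± 0.76 (SE, edgeR adjusted p 0.663) turned to 0.09 without mouse 918. The myosin genes share sequence, which the counting can split between them. Of the 50-base stretches of Myh1, 32.1% occurred in other genes, 19.7% in Myh2, and of those of Myh7, 22.2% occurred in Myh6, its cardiac neighbour.

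The myosin light chains Mylpf and Myl1, both of fast fibers, followed the same mice. Mylpf had 0.975, 24.0 and 33.2 CPM in Nf2 mice and 1.19, 4.23 and 10.8 CPM in DKO mice. Myl1 had 0.563, 25.1 and 44.7 CPM against 0.724, 4.61 and 14.5 CPM. Both genes were lowest in mouse 702 and highest in mouse 918, and their log2 fold changes were -1.96 and -1.98. Of the 50-base stretches of Myl1, 23.4% also lie in the pseudogene Mylf-ps.

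Myosin-binding protein C is bound to the thick filament and has a slow gene, Mybpc1, and a fast gene, Mybpc2. Mybpc1 had 0.750, 15.9 and 38.8 CPM in Nf2 mice and 0.426, 1.14 and 11.1 CPM in DKO mice, log2 fold change -2.66 ± 0.94 (SE), edgeR adjusted p 0.192. Mybpc2 had 0.938, 14.5 and 31.2 CPM against 2.43, 3.26 and 7.56 CPM, log2 fold change -1.88 ± 0.64 (SE), adjusted p 0.178. The genes differed in which mouse was highest, 884 for Mybpc1 and 918 for Mybpc2. Per kilobase of exon, Mybpc2 was 0.402 times Mybpc1 in mouse 884 and 7.94 times Mybpc1 in DKO mouse 887, the ends of the range.

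**Figure D3:**
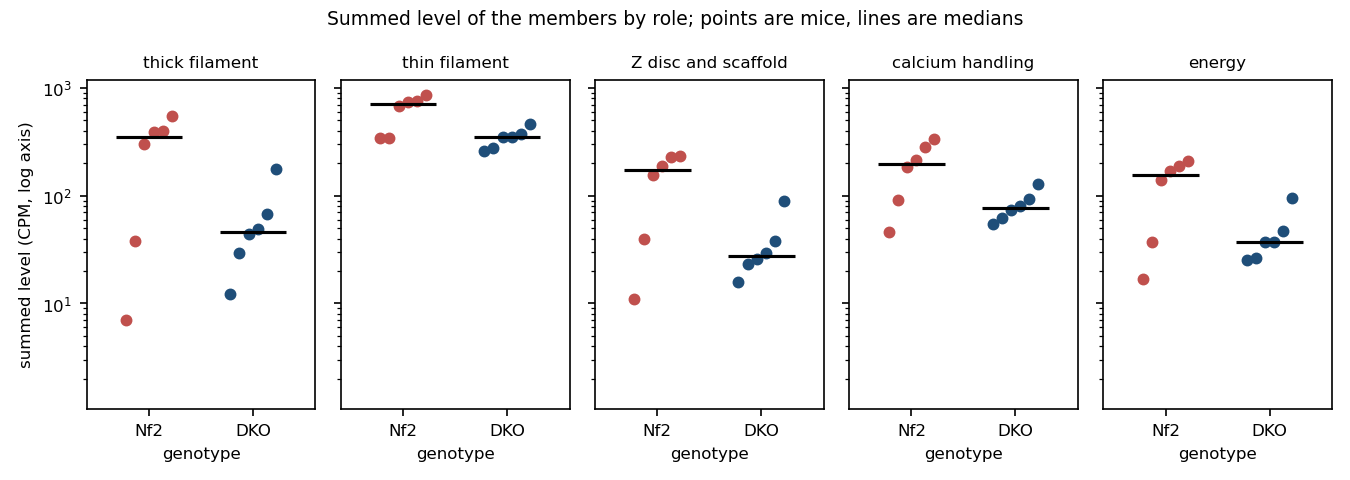
Summed CPM of the members of each of the 5 roles on a log axis, 1 point per mouse, with a line at the median of each genotype. In each panel 4 of the 6 Nf2 mice lie above all DKO mice and mouse 649 lies among them, while mouse 702 lies below all DKO mice except in the thin filament panel. The thick filament panel runs from 7.09 to 549 CPM, and the thin filament panel, which holds Tpm1, only from 262 to 860 CPM.

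The thin filament members comprise actin, nebulin, the troponins and the tropomyosins, and summed to 341, 708 and 860 CPM in Nf2 mice and to 262, 352 and 465 CPM in DKO mice. Acta1 (ENSMUSG00000031972, chromosome 8, 123891769 to 123894751) had 2.14, 105 and 141 CPM in Nf2 mice and 2.34, 12.3 and 50.5 CPM in DKO mice. Mice 918, 1049, 884 and 1048 were at 96.0 CPM or more, above all DKO mice, while 649 and 702 were at 10.2 and 2.14 CPM. Acta1 had a log2 fold change of -2.27 ± 0.83 (SE) and in edgeR an adjusted p of 0.206. Neb encodes nebulin, the ruler of thin filament length, and had 4.39, 36.5 and 69.5 CPM against 3.58, 7.09 and 23.1 CPM. Neb was highest in mouse 884, and its log2 fold change of -1.91 ± 0.63 (SE) had an adjusted p of 0.167.

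Troponin is made of a tropomyosin-binding (T), an inhibitory (I) and a calcium-binding (C) subunit, and the fast and slow genes differed in level. The fast troponin T gene Tnnt3 had 1.73, 87.9 and 121 CPM in Nf2 mice and 2.38, 11.9 and 37.3 CPM in DKO mice. The fast troponin I gene Tnni2 had 0.600, 31.3 and 42.9 CPM against 0.979, 4.77 and 16.3 CPM. The fast troponin C gene Tnnc2 had 0.525, 27.2 and 39.7 CPM against 0.341, 4.22 and 11.5 CPM. All 3 were highest in mouse 918, with 4 Nf2 mice above all DKO mice, and their log2 fold changes were -2.28, -2.08 and -2.22, with edgeR adjusted p of 0.171, 0.175 and 0.186. Tnnc2 overlaps Ube2c, in which 55.0% of its 50-base stretches also lie, and since the treatment of strand is not given in the sources used here, reads of the pair may not be separable.

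The slow troponins were scarce in all mice. The slow troponin T gene Tnnt1 had 0.300, 0.988 and 3.07 CPM in Nf2 mice and 0.189, 0.553 and 2.01 CPM in DKO mice. Tnni1 had 0.563, 1.52 and 1.76 CPM against 1.21, 1.40 and 1.74 CPM, and Tnnc1 had 0.375, 0.663 and 1.80 CPM against 0.645, 1.00 and 1.30 CPM. Levels of Tnni1 and Tnnc1 lay within 3.12-fold and 4.79-fold over all mice, and their correlations with the sum of the other members were 0.24 for each. Tnnt1 varied 16.2-fold, with a correlation of 0.70 and a log2 fold change of -0.94 ± 0.58 (SE, edgeR adjusted p 0.490). Tnni1 had a log2 fold change of 0.08 ± 0.24 (SE), which turned to -0.08 without mouse 702. Tnnc1, which is also the cardiac troponin C gene, overlaps Nisch.

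Tropomyosin winds along actin and covers the sites of myosin binding. Tpm1 (ENSMUSG00000032366, chromosome 9, 67022590 to 67049406) had 258, 325 and 369 CPM in Nf2 mice and 216, 282 and 288 CPM in DKO mice. All Nf2 mice but 649 lay above all DKO mice, mouse 702 included, at 310.1 CPM. The log2 fold change was small and tightly estimated, -0.29 ± 0.09 (SE), at an edgeR adjusted p of 0.133. Tpm2 (ENSMUSG00000028464, chromosome 4, 43514711 to 43523765) had 19.9, 73.7 and 84.7 CPM against 15.5, 22.8 and 40.5 CPM, log2 fold change -1.32 ± 0.33 (SE), adjusted p 0.0784. Mice 649 and 702, at 30.6 and 19.9 CPM, were the Nf2 mice within the DKO range of Tpm2.

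The Z disc, titin and scaffold members summed to 11.0, 174 and 234 CPM in Nf2 mice and to 15.7, 27.7 and 88.7 CPM in DKO mice. Ttn encodes titin, the molecular spring that spans from Z disc to M line, and had 2.51, 68.9 and 111 CPM in Nf2 mice against 3.66, 9.88 and 39.8 CPM in DKO mice. In edgeR its log2 fold change was -2.18 ± 0.71 (SE), adjusted p 0.159. With 116825 bases of exon, titin yields many reads per molecule, and per kilobase its median over the 12 mice was 0.134 CPM, against 10.1 CPM for Acta1. Mice 884 and 918 held its highest values, 111 and 105 CPM.

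The α-actinins cross-link actin at the Z disc, Actn2 in all fibers and Actn3 in fast fibers. Actn2 had 0.675, 7.56 and 24.0 CPM in Nf2 mice and 1.48, 2.38 and 8.51 CPM in DKO mice. Actn3 had 2.55, 19.9 and 56.1 CPM against 2.00, 5.85 and 11.2 CPM, with its highest value in mouse 1049. The highest mouse for Actn2 was 884, which had 11.8 CPM of Actn3, about as much as DKO mouse 917 at 11.2 CPM. The log2 fold changes were -1.44 ± 0.64 and -1.96 ± 0.66 (SE), with edgeR adjusted p of 0.308 and 0.176.

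Of the other scaffold members, Des encodes desmin, the intermediate filament that links Z discs. It had 2.89, 21.7 and 33.3 CPM in Nf2 mice and 3.49, 4.49 and 11.7 CPM in DKO mice, log2 fold change -1.75 ± 0.50 (SE), edgeR adjusted p 0.112. Tcap, the titin cap, had 0.338, 10.8 and 20.4 CPM against 0.468, 1.33 and 7.82 CPM. Xirp2, an actin-binding repeat protein, had 0.263, 19.6 and 30.3 CPM against 0.383, 2.35 and 8.03 CPM. Des, Tcap and Xirp2 were all highest in mouse 884 and lowest in mouse 702, with 4 Nf2 mice above all DKO mice. Smpx, a small muscle protein gene on the X chromosome, varied 2.57-fold over all mice, from 1.55 to 3.99 CPM, and had a log2 fold change of -0.57 ± 0.22 (SE), adjusted p 0.238.

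The calcium handling members summed to 46.4, 198 and 336 CPM in Nf2 mice and to 55.0, 76.7 and 127 CPM in DKO mice. Atp2a1, the fast fiber pump that returns calcium to the sarcoplasmic reticulum, had 1.28, 102 and 195 CPM in Nf2 mice and 2.77, 10.8 and 53.2 CPM in DKO mice. The edgeR estimate was -2.40 ± 0.91 (SE) on the log2 scale, adjusted p 0.225. Mice 918, 1049, 1048 and 884 were at 99.2 CPM or more, and mouse 649, at 5.79 CPM, was below 5 of the 6 DKO mice. Of its 50-base stretches, 18.2% also lie in Rabep2, which overlaps it.

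Excitation reaches the calcium store through Cacna1s, the voltage sensor of the transverse tubule, and Ryr1, the release channel. Cacna1s had 0.596, 5.36 and 7.67 CPM in Nf2 mice and 0.379, 0.977 and 2.38 CPM in DKO mice, log2 fold change -2.01 ± 0.61 (SE), edgeR adjusted p 0.136. Ryr1 had 3.00, 23.2 and 34.2 CPM against 2.64, 5.67 and 14.0 CPM, log2 fold change -1.58 ± 0.54 (SE), adjusted p 0.176. Casq1, the calcium buffer of the store, had 2.29, 10.8 and 19.1 CPM against 2.83, 4.01 and 7.00 CPM, log2 fold change -1.29 ± 0.40 (SE), adjusted p 0.146. In each of these genes 4 Nf2 mice lay above all DKO mice, and mice 649 and 702 did not. Cacna1s had the highest correlation with the sum of the other members, 0.99.

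Pvalb is a calcium buffer of fast fibers and of proprioceptive neurons. Per kilobase of all annotated exons it had the highest level among the members, with a median of 53.7 CPM over the 12 mice. Tpm1 came next at 44.3 CPM by this length, 6485 bases, but its longest transcript has 2890 bases. For Pvalb these lengths were 1041 and 977 bases, so the order of the pair depends on the length used. Pvalb had 38.8, 70.5 and 80.9 CPM in Nf2 mice and 41.2, 52.3 and 60.8 CPM in DKO mice. Its order of mice was its own: mouse 884, among the highest for most members, was the lowest for Pvalb, and mouse 649, low for most, was at 74.1 CPM. The correlation of Pvalb with the sum of the other members was 0.40, and its edgeR log2 fold change was -0.29 ± 0.18 (SE), adjusted p 0.498. A list of 6 proprioceptive neuron genes, Nefh, Ntrk3, Heg1 and Etv1 among them, had no gene past the threshold and a median log2 fold change of 0.07. Of the 6 estimates, 1 was below 0, that of Heg1 (-0.58, edgeR adjusted p 0.0657). Ntrk3 was at 199 to 259 CPM in Nf2 mice and 269 to 339 CPM in DKO mice (0.31, edgeR adjusted p 0.0654).

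The energy members summed to 17.0, 155 and 209.9 CPM in Nf2 mice and to 25.2, 37.0 and 94.3 CPM in DKO mice. Ckm, the muscle creatine kinase that regenerates ATP, had 0.938, 62.9 and 98.3 CPM in Nf2 mice and 1.92, 10.1 and 34.7 CPM in DKO mice. Mb, the oxygen store myoglobin, had 0.450, 10.1 and 45.3 CPM against 0.0426, 1.46 and 9.41 CPM, the lowest of these being 1 read in mouse 886. Ampd1, the muscle AMP deaminase, had 0.0375, 2.72 and 6.63 CPM against 0.0852, 0.562 and 1.21 CPM. Their log2 fold changes were -2.09, -2.38 and -2.25, with edgeR adjusted p of 0.224, 0.275 and 0.173. Mb was highest in mouse 884, and Ckm and Ampd1 in mouse 918. Of the 50-base stretches of Mb, 34.0% also lie in Gm49540, which overlaps it.

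Pygm, the muscle glycogen phosphorylase, had 5.44, 28.8 and 48.7 CPM in Nf2 mice and 7.57, 11.4 and 26.3 CPM in DKO mice. Eno3, the muscle enolase of glycolysis, had 10.1, 28.4 and 41.8 CPM against 11.7, 13.3 and 22.7 CPM. Both had their highest value in mouse 918 and their lowest in mouse 702, and their ranges over the 12 mice, 8.96-fold and 4.12-fold, were narrow for the set. Their log2 fold changes were -1.03 ± 0.48 and -0.93 ± 0.29 (SE), with edgeR adjusted p of 0.340 and 0.143.

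Fiber type was read from the shares of the 4 adult myosin genes among their joint reads, which numbered from 103 in mouse 702 to 12025 in mouse 918. Fast myosins made up nearly all of them in each mouse, and the slow Myh7 share ran from 0.23% in mouse 885 to 5.96% in mouse 915. The makeup of the fast part differed from mouse to mouse. In mouse 918 the reads were 48.4% Myh1 (95% Wilson interval 47.5% to 49.3%), 40.6% Myh4 and 10.0% Myh2, and in mouse 884 they were 45.9% Myh1, 46.9% Myh2 (45.8% to 47.9%) and 7.02% Myh4. In DKO mice 914, 887 and 885, Myh4 took 87.1% (85.3% to 88.8%), 84.6% and 77.8% of the reads, and Myh1 in mouse 914 took 2.58%. DKO mouse 917 stood near Nf2 mouse 1048, with 56.7% and 63.2% Myh1 and 23.4% and 19.7% Myh4. Shares did not split by genotype, since Myh4 ran from 7.02% to 64.1% in Nf2 mice and from 23.4% to 87.1% in DKO mice. The intervals cover counting error only and not the shared sequence of these genes. Taking levels per kilobase of exon moved the Myh4 share by little, to 42.5% in mouse 918 and 7.79% in mouse 884.

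**Figure D4:**
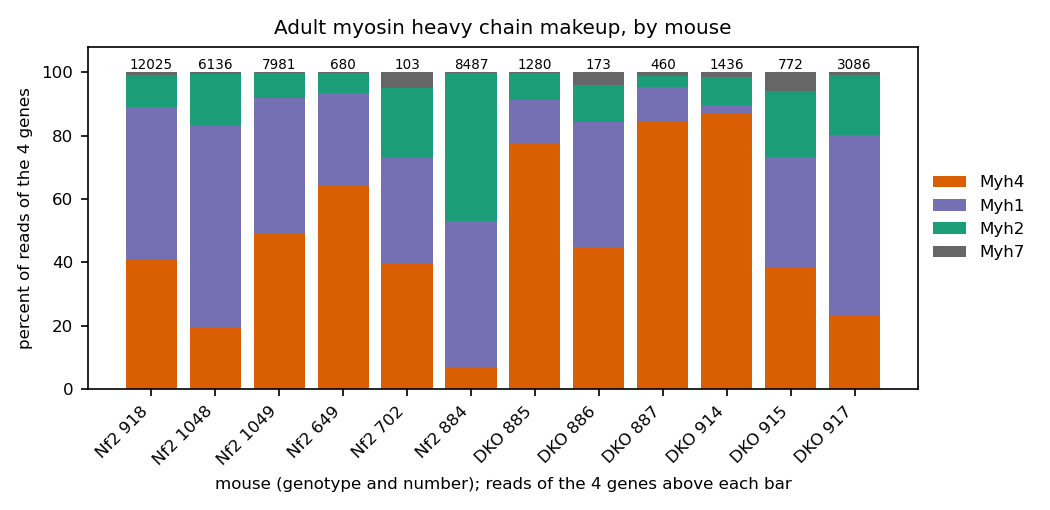
Share of Myh4, Myh1, Myh2 and Myh7 among the joint reads of the 4 adult myosin genes in each mouse, in percent, with the number of joint reads above each bar. Myh2 takes 46.9% in Nf2 mouse 884, Myh4 takes 87.1% in DKO mouse 914, and Myh7 stays at 5.96% or less in every mouse.

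Fast and slow genes were also set side by side. The 13 fast fiber members summed to 54.3 to 1061 CPM, or to 15.1 to 979.7 CPM without Pvalb, which made up most of it in the lowest mouse, and the 4 slow members, Myh7, Tnnt1, Tnni1 and Tnnc1, to 1.43 to 7.81 CPM. Per kilobase of exon, Tnnt3 was 151 times Tnnt1 in mouse 918 and 8.01 times in mouse 702. Tnni2 was 72.1 times Tnni1 in mouse 884 (30.0 times in CPM) and 1.42 times in mouse 886 (0.590 times in CPM). Tnnc2 was 57.5 times Tnnc1 in mouse 1049 and 0.40 times in mouse 886, the mouse with 8 reads of Tnnc2. Over the 12 mice Tnni1 and Tnnc1 varied 3.12-fold and 4.79-fold, against 71.4-fold and 117-fold for Tnni2 and Tnnc2. These ratios therefore moved mainly with the level of the fast gene, and a low ratio does not by itself show slow fibers. Of the myosin-binding proteins, Mybpc1 is a slow isoform that fast fibers also make, and it was not counted in the slow sum. Per kilobase it exceeded the fast isoform Mybpc2 in mice 884 and 917, and in CPM also in mice 918 and 915.

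Mouse 884 was set beside mouse 918 because both were rich in muscle transcripts and differed in myosin. This pair was chosen after its values were seen, and the intervals are of counting error alone. In mouse 884, Myh2 was 3.33 times as high as in mouse 918 (95% interval 3.13 to 3.56), Mb 3.13 times (2.81 to 3.49), Tnnt1 2.76 times (1.85 to 4.11) and Actn2 2.42 times (2.11 to 2.78). At the other end, Myh4 was 0.123 times as high (0.113 to 0.134), Actn3 0.233 times, Mybpc2 0.399 times and Casq1 0.445 times. Of the 4 slow members, Tnnt1 was above 1, whereas Myh7 was at 0.185 times (0.116 to 0.294), Tnnc1 at 0.520 times (0.294 to 0.918) and Tnni1 at 0.716 times (0.461 to 1.11). In all, 10 members had an interval above 1, 22 had one below 1, and for Smpx, Cacna1s and Tnni1 it held 1.

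**Figure D5:**
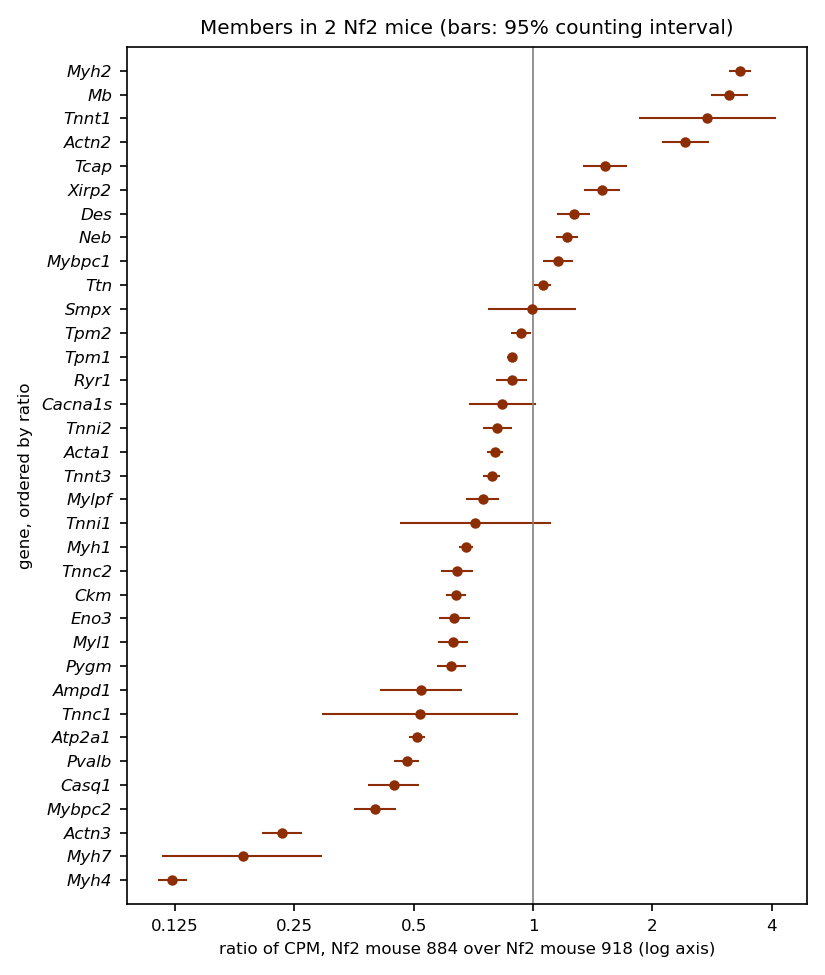
Ratio of CPM in Nf2 mouse 884 over Nf2 mouse 918 for each of the 35 members on a log axis, with 95% counting intervals as bars, ordered by ratio. Myh2, at 3.33, and Mb, at 3.13, stand at the top, and Myh4, at 0.123, at the bottom.

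By labelled sex, no member passed an edgeR adjusted p of 0.05 with genotype as a covariate, and 0.0164% of all genes did (3 of 18295). At an unadjusted p under 0.05, 1 member, Actn3, passed (log2 difference of male against female -1.39 ± 0.64 SE), against 2.91% of all genes. The median over the members was -0.30, with 9 members above 0. Both readings rested on mouse 702: without it Actn3 was at -0.998 ± 0.606 (SE, unadjusted p 0.126 in edgeR), 0 members passed against 2.66% of all genes, and the median was 0.11, with 21 members above 0. The 3 Nf2 mice labelled female had summed levels of 1491 to 2185 CPM and the 3 labelled male 422 to 1729 CPM, whereas DKO mice labelled female had 384 to 619 CPM and those labelled male 526 to 952 CPM. In both genotypes the labelled sexes overlapped.

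Whether the difference between genotypes depended on labelled sex was tested as an interaction. No member passed in edgeR, where 0.0109% of all genes did, and 9 members did at an unadjusted p under 0.05, against 4.78% of all genes (Myh7, Myh4, Myh1, Actn3, Eno3, Casq1, Pygm, Mybpc2 and Tpm2). The estimate, the DKO minus Nf2 difference among mice labelled male less that among mice labelled female, was above 0 in 33 members, against 48.2% of all genes, and its median was 2.12. Without mouse 702 it was above 0 in 33 members as well, against 49.7% of all genes, with a median of 1.64. The members share their spread between mice, so these counts do not stand for separate observations. DESeq2 called Myh7, with 0.116% of all genes called. Myh7 had 2 and 5 reads in Nf2 mice 649 and 702 and 115 in Nf2 mouse 918. In DKO mice 885, 886 and 887 it had 3, 7 and 5 reads. The interaction was not fitted without mouse 918. For Myh7 the edgeR interaction was 4.83 ± 1.13 (SE, adjusted p 0.791), and leaving out mouse 702 gave 4.55 ± 1.22 (SE, adjusted p 0.772).

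Other genes of muscle were examined from lists set beside the members. Of 16 tested genes of skeletal muscle structure, none passed the edgeR threshold and 14 had an estimate below 0, with a median log2 fold change of -1.50. Cryab, Flnc and Ldb3, which were among the most abundant, had estimates of 0.11, -0.35 and -0.41. Cryab encodes a small heat shock protein also made outside muscle, whereas Flnc and Ldb3 encode proteins of the Z disc. Of 13 genes of excitation and calcium handling, none passed and all 13 were below 0 (median -0.77), with Asph, Cacnb1, Srl and Scn4a at -0.06, -0.13, -0.78 and -0.11. Of 16 genes of muscle metabolism, none passed and 12 were below 0 (median -0.40), with Pfkm, Ak1, Phka1 and Gys1 between -0.04 and 0.07.

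Genes of the nerve-muscle contact and of muscle precursors had median estimates nearer 0, with Smyd1 and Cdh15 further away. Of 7 neuromuscular junction genes, none passed, and the median was 0.01, with Lrp4, Rapsn, Dok7 and Chrnb1 between -0.20 and 0.16. The subunit genes of the muscle acetylcholine receptor Chrnd, Chrng and Chrne were each at 0 in some mice and too low to test. Of 11 myogenic factors and satellite cell genes, 5 were tested and none passed (median -0.06), and Mef2c, Cdh15 and Smyd1 had estimates of -0.06, 0.93 and -1.14. Cdh15, the cadherin of satellite cells, had 0.894, 2.87 and 4.24 CPM in Nf2 mice and 4.34, 5.21 and 6.01 CPM in DKO mice, without overlap, and an adjusted p of 0.185. Of those too low to test, Myod1, Myog, Myf5 and Pax7 did not exceed 0.271 CPM in any mouse. Myf6 and Vgll2, also not tested, reached 1.025 and 1.435 CPM in mouse 884 and were at 0 in mice of both genotypes. The developmental myosins Myh8 and Myh3 were at 1.76 to 5.58 and 0.262 to 1.47 CPM, with estimates of 0.22 and -0.26.

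Tissues that can lie beside muscle were examined in the same way, and none of their genes passed the threshold. Smooth muscle and mural cell genes, with Rgs5, Pdgfrb, Mylk and Tagln highest, summed to 141 to 225 CPM in Nf2 mice and 151 to 210.2 CPM in DKO mice. Tendon genes, with Fmod and Thbs4 highest, summed to 28.8 to 41.5 and 32.8 to 107 CPM. Bone and cartilage genes summed to 25.3 to 55.9 and 18.6 to 40.7 CPM, and adipocyte genes to 8.03 to 12.6 and 6.15 to 11.0 CPM. All these ranges overlapped between the genotypes. The tendon genes Mkx and Scx had 7.28 to 9.07 and 4.88 to 8.48 CPM over all mice, whereas Tnmd and Kera were at 0 in mice of both genotypes. Satellite glia genes, with Apoe highest, summed to 3850.3 to 5775 and 2944 to 4331 CPM. The part of these tissues in the muscle levels was not tested.

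The pattern of the members reached beyond the list. Other genes with a mean of at least 1 CPM, 15813 in all, were ranked by the Pearson correlation of log2(CPM + 0.5) with the log2 of the summed member level over the 12 mice. The correlation exceeded 0.9 for 31 of them, and none was below -0.9. Among the 15 highest, from 0.98 to 0.96, were Hfe2, Klhl31, Pdlim3, Hrc, Klhl41, Rpl3l, Sypl2, Myot, Smyd1, Myoz1, Myo18b, Myom1, Mylk2 and Apobec2. Hfe2 had 0.113 to 5.17 CPM in Nf2 mice and 0.0426 to 1.04 CPM in DKO mice. Hrc encodes a calcium-binding protein of the sarcoplasmic reticulum, Myot, Myoz1 and Pdlim3 encode Z disc proteins, and Myom1 encodes myomesin of the M line. At the other end stood Tmprss7 at -0.85, 8430429K09Rik at -0.84, Ppp1r1b at -0.81, and Pigk and 2210412B16Rik at -0.80. All of these points share their libraries, so the correlations are descriptions.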

How the data were processed

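RNA of 8 pooled DRG per mouse was sequenced after poly(A) selection by a commercial provider. The authors deposited raw read counts, as whole numbers for each Ensembl gene in each mouse. The deposited values are not normalized, though the study's methods describe a log2 CPM scale for its own plots. The submitters' processing notes name Trimmomatic 0.36, STAR 2.5.2b, featureCounts from Subread 1.5.2 and GRCm38. The strand setting, the annotation and the handling of multi-mapping reads are not given in the sources used here, so counts of overlapping or similar genes are uncertain. GENCODE M21 gave positions and exon lengths for 48970 (99.3%) of the genes. Exon length covered all annotated exons of a gene, so levels per kilobase are lower where isoforms add exons. The 66 pairs of libraries differed by more than sampling noise (chi-square per degree of freedom 9.73 to 81.2), and p-values measure the spread between mice.

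CPM was the count over the library total. With 3 reads as the limit, folds were not taken where the lowest mouse had fewer reads or as many. Genotypes were compared in R 4.3.3 by the quasi-likelihood test of edgeR 4.0.16 on all 12 mice without covariates, with filterByExpr, TMM scaling and Benjamini-Hochberg adjustment over 18295 genes at 0.05. Labelled sex was a term beside genotype, and the interaction a further term. The SE given with edgeR estimates was derived as the absolute log2 value divided by the square root of the F statistic. DESeq2 1.42.0, limma 3.58.1 voom, other scalings and filters, sex as a covariate and leaving out each mouse were alternatives. The fits were tested on simulated data, in which every gene varied at the trend of all genes and randomly chosen genes were raised by set folds. The limit set on false calls was not applied to DESeq2. The members vary more (median biological coefficient of variation 77.6%, against 15.7% over all genes), so this test does not speak for them. Figures and tables used Python 3.11.15, pandas 2.3.3 and matplotlib 3.10.9. Promoters came from RefSeq tables.

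Members and the 23 gene lists were chosen with earlier results of these data known. All 35 members were named, with at most 4 genes per further list in order of mean CPM and the 15 highest and 5 lowest genes by likeness. Others are named as chosen after their values were seen. Protein sequences were not used here. Some genes that this rule would name are not reported here.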

Additional observations from a re-analysis of the deposited data

Results flagged for a closer look

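A mouse far from the others of its genotype was sought on log2(CPM + 4) for each of the 35 members, and likewise for their summed level and the Myh4 share, in each genotype. Of these 74 groups of 6 mice, 6 held such a mouse, where chance gives about 1 in 20 groups (3.7 of 74). In 4 of the 6, the mouse was DKO 917, the DKO mouse with the highest summed level. It had 3.64 for Actn2 against 2.80 in the nearest DKO mouse, 3.56 for Tcap against 2.60, 3.91 for Mybpc1 against 2.80 and 4.74 for Eno3 against 4.16. Nf2 mouse 918 had 2.98 for Myh7 against 2.36 in the nearest Nf2 mouse, and without it the genotype estimate of Myh7 turned from -0.84 to 0.09. DKO mouse 885 had 2.59 for Tnnt1, the slow troponin T gene, against 2.24 in the nearest DKO mouse.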

How the results depend on the processing

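DESeq2 raised the genes past the threshold from 172 to 845 and the members from 0 to 6, and limma voom gave 521 genes and 1 member. Leaving out 1 mouse at a time gave 81 to 217 genes, 0 to 3 members and a member median of -2.37 to -1.64. The lowest gene counts came without mice 918 (81), 917 (87), 885 (95), 1049 (98), 884 (107), 914 (110) and 702 (114). By labelled sex, DESeq2 gave 5 genes and the fit without mouse 702 gave 10, against 3. For the interaction, DESeq2 called 1 member. Of 663 alternative values of single members, 650 kept their direction and side of the threshold, 11 passed it and 2 turned direction, Myh7 without mouse 918 (leave-one-out range -1.42 to 0.0868) and Tnni1 without mouse 702 (range -0.081 to 0.16). Other scalings and filters, and sex as a covariate, called 0 members. The cause of these shifts was not tested. Depth limits Myh7, Mb and Ampd1, which had 3 reads or fewer in the lowest mouse. Of the 15 genes most like the members, 13 were the same with log2(CPM + 4), 10 by Spearman correlation, and all 15 without Tpm1 and Pvalb in the sum, an alternative chosen after seeing the data, as was the fast fiber sum without Pvalb. No paired analysis was possible because each mouse has its own number.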

Other observations

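Genes that slow fibers share with the heart were spread between patterns. Of 8 such genes outside the list, none passed the edgeR threshold, 5 had an estimate below 0, and the median log2 fold change was -0.29. The most abundant, Atp2a2, the calcium pump of slow fibers, heart and many other cells, had 234 to 423 CPM in Nf2 mice and 296 to 455 CPM in DKO mice. Tpm3 and Casq2 had estimates of -0.08 and 0.59, and Myh7b one of -0.49. Csrp3 and Myl2, named after their values were seen, had estimates of -3.17 (adjusted p 0.0954) and -1.72 (adjusted p 0.298). Csrp3 encodes the muscle LIM protein of the Z disc, and its level had a Pearson correlation of 0.87 with the summed member level over the 12 mice. It had 0.0750 to 4.85 CPM in Nf2 mice and 0 to 0.605 CPM in DKO mice, and the genotypes overlapped. Among 10 genes of cardiac muscle, 7 were tested and none passed (median 0.17). Ryr2 and Myh6, the most abundant, had 39.9 to 98.7 CPM and 8.77 to 26.5 CPM over all mice, and their correlations with the summed member level were -0.11 and -0.03. Of the same list, Tnni3 had 1.24 to 2.26 CPM over all mice, whereas Myl7 and Mybpc3 were at 0 in mice of both genotypes.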
